A study of Mus musculus with 32 samples.

Results

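The comparison described here is that of Cyp2b-null with WT mice fed the CDAHFD, in the libraries labelled as male. Members were chosen by label, with earlier results of these data known. They are the 4 Cyp2b-null and the 4 WT libraries of male mice on this diet, 8 of the 32 libraries and 8 of the 16 male libraries of the series, which has 8 groups of 4 (both genotypes, both diets, both sexes). The study measured liver RNA by sequencing in order to ask how the loss of Cyp2b enzymes alters diet-induced nonalcoholic steatohepatitis (NASH). All mice are labelled C57BL/6 (B6), the null line having been made on C57BL/6J by the study's methods, and were about 10 weeks old when the diets began. The Cyp2b-null line lacks Cyp2b9, Cyp2b10 and Cyp2b13, which were removed together by CRISPR/Cas9 and are therefore lost in every cell of the body and throughout life. The WT mice were bought from The Jackson Laboratory and were not stated to be littermates of the null line, so that genotype and origin of the animals cannot be told apart. The CDAHFD is a diet of defined L-amino acids that is deficient in choline, with 62% fat and 0.1% methionine, that was given for 8 weeks, and the other diet is a normal chow (ND). Replicates are separate samples by their labels, and each p-value measures the spread between samples of a group only. Unless stated otherwise, this spread was estimated over the 4 male groups together, ND included. For the contrast of the sexes it was estimated over all 8 groups.

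Cyp2b enzymes are cytochrome P450s of the liver that oxidise drugs, environmental chemicals, steroids and unsaturated fatty acids, and several of them are induced through the nuclear receptors CAR and PXR. In mice, Cyp2b9 and Cyp2b13 are expressed mainly in females, and Cyp2b10 is the classic phenobarbital-inducible form. A diet deficient in choline limits the synthesis of phosphatidylcholine and with it the export of triglyceride in lipoproteins, and fat, inflammation and collagen then build up in the liver.

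The deleted genes were examined first, because they check the genotype labels. Levels are given as CPM, the counts of a gene relative to the library total, with library sizes scaled by TMM, and they compare libraries for 1 gene rather than genes with each other, since CPM takes no account of gene length. Cyp2b9 measured 0.474, 0.615, 0.576 and 0.404 CPM in Cyp2b-null replicates 1 to 4 and 67.9, 56.7, 13.6 and 46.8 CPM in WT replicates 1 to 4. All 4 null libraries therefore lay far below all 4 WT libraries, on 2 to 7 counts each against 118 to 364. Cyp2b9 fell by 6.36 on the log2 scale (SE 0.55, edgeR quasi-likelihood test, adjusted p = 2.505e-06), a size that rests on few counts in the null libraries. Cyp2b13 had 0 counts in every null library and 2 to 6 counts in the WT libraries, a level at least 1.33-fold lower against the floor of 3 counts per library, and it was too low to be tested. Cyp2b10, which was hardly expressed on this diet, measured 0, 0.615, 0.165 and 0 CPM in the null mice and 0, 0.614, 0.576 and 1.22 CPM in WT mice. These ranges overlap, so that on the CDAHFD Cyp2b10 could not check the labels. On ND it could, where the null group had 0.463 ± 0.363 CPM and the WT group 11.1 ± 3.72 CPM (SD of 4 libraries each).

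The 8 libraries held 4483301 to 9411558 counts in genes. The tissue label was checked against hepatocyte markers: albumin (Alb) measured 42240 to 66330 CPM in the null and 44430 to 80020 CPM in the WT libraries, and the nuclear receptor Hnf4a 526.9 to 588.9 and 535.0 to 583.0 CPM. The pancreatic protease gene Prss2 and the pancreatic lipase gene Pnlip were at or near 0. Cela1, also used as a pancreatic marker, measured 5.38 to 8.51 CPM in the null and 4.91 to 12.5 CPM in the WT libraries. Some libraries stood apart from the rest. In a principal component analysis of the 500 most variable genes, WT replicate 1 lay farthest out on the first component (30.5% of the variance) and Cyp2b-null replicate 4 farthest out on the second (19.7%). The 10 most abundant genes took 25.2% of the counts of null replicate 4, the highest share among the 8 libraries, and the other libraries ranged upwards from 16.1%. The effect of leaving out null replicate 4 is therefore given beside single values and, for the lists, at the end, where WT replicate 1 is also left out.

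At the level of pathways the null and WT livers were close. A total of 41 gene lists were described, each by its tested members and by its level, the mean log2 CPM over these members. In 0 of the 41 lists did the level separate the 4 null from the 4 WT libraries. The median log2 difference (null minus WT) was above 0 in 18 lists and below 0 in 23, between -0.32 and 0.24, beside a median of 0.005 over all 13460 genes tested, of which 6884 were higher in the null mice. The lists that lay highest with at least 5 tested members were collagen and matrix (0.23), macrophage (0.22), endothelial (0.20) and glucocorticoid-responsive genes (0.20). Those that lay lowest were erythroid genes (-0.32), bile acid genes (-0.20), the endoplasmic reticulum stress list (-0.17) and P450s of families 1 to 3 (-0.16). In bulk liver, fewer cells of a type and less RNA per cell cannot be told apart.

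**Figure D1:**
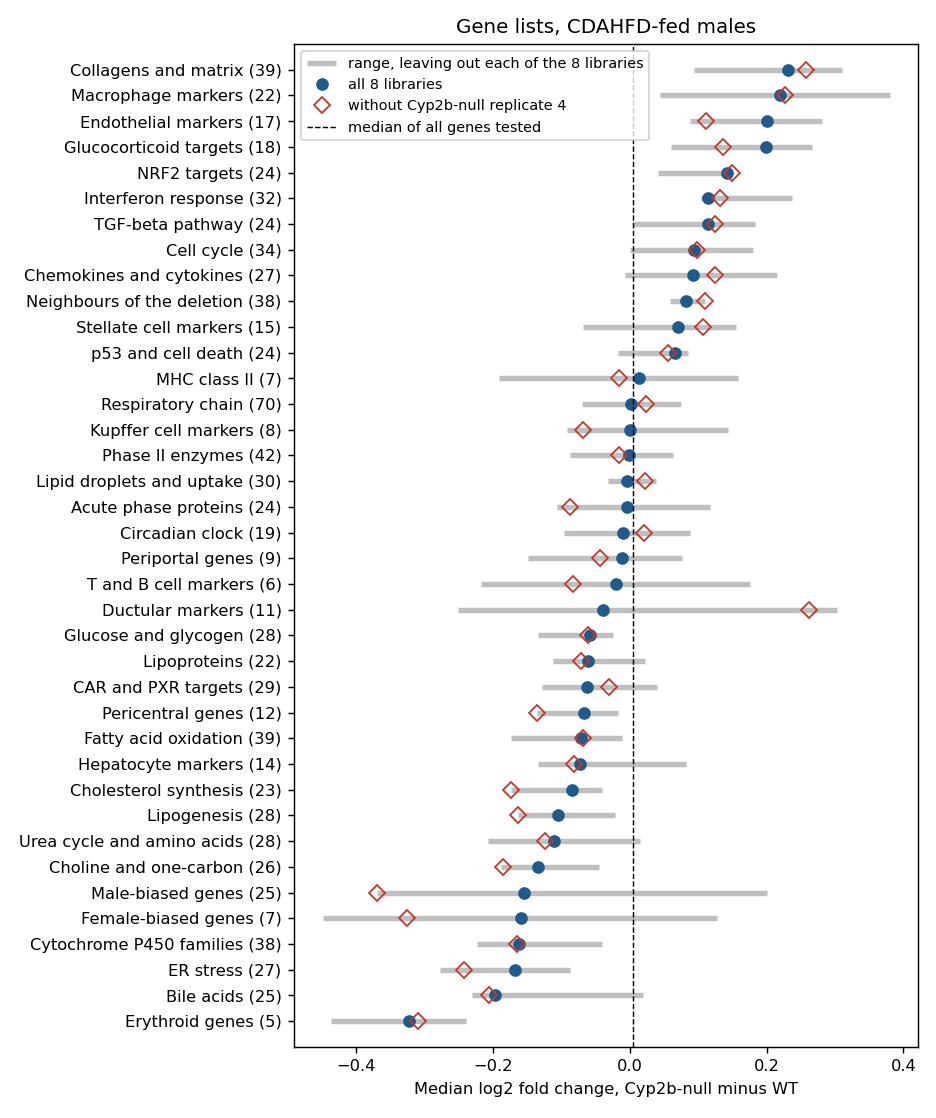
Median log2 difference (Cyp2b-null minus WT, CDAHFD males) of each gene list with at least 5 tested members, with all 4 null replicates and without null replicate 4. The medians lie between -0.32 and 0.23 with all replicates, and the largest shift, 0.30, is that of the ductular list.

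After adjustment for all 13460 genes, 4 genes passed the test, 0.0297% of those tested, and 38 of the 41 lists held none of them. Of the 856 tested genes that are in a list, 1 was called, Cyp2a4. Before adjustment, 15 of the list genes were higher and 27 lower at p under 0.05, beside 180 (1.34%) higher and 307 (2.28%) lower over all genes tested. The pathway results below are thus values of small size, and a list gene is said to rise or fall only where it passed the adjusted test. Every list gene named other than Cyp2a4 had an adjusted p of 0.9999.

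**Figure D2:**
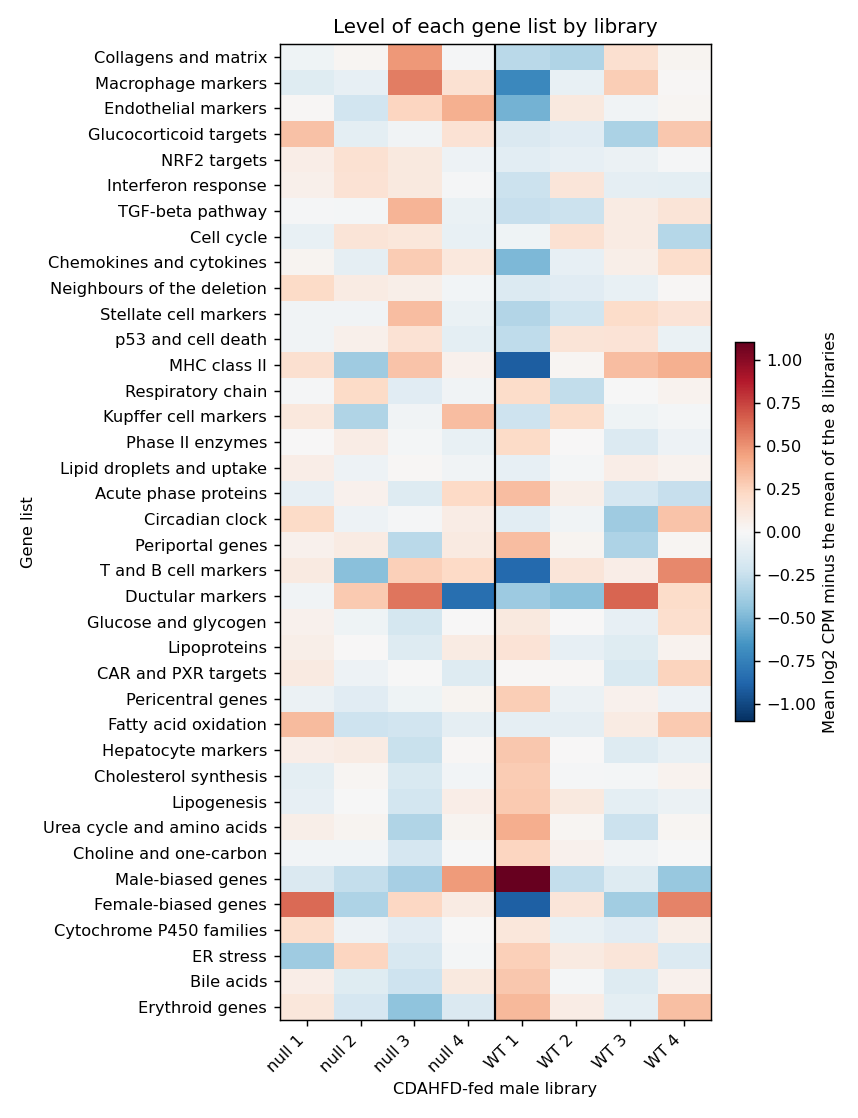
Heat map of the level of each gene list with at least 5 tested members in each of the 8 libraries. Colour gives the mean log2 CPM over tested members minus the mean of the 8 libraries. The levels of the null and WT libraries overlap in every list.

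Cyp2b enzymes belong to the detoxification genes, which are described first. Of 38 tested P450s of families 1 to 3, 9 were higher and 29 lower in the null mice, with a median of -0.16. The levels of the list overlapped almost fully, with 5.91 to 6.23 in the null and 5.91 to 6.17 in the WT libraries. Without WT replicate 1 the median was -0.04. At an unadjusted p under 0.05, 3 members were higher (Cyp2a4, Cyp2a5 and Cyp1b1) and 3 lower (Cyp3a11, Cyp3a25 and Cyp2c29). Cyp1b1, which oxidises estrogens and polycyclic hydrocarbons, averaged 5.19 CPM in the null and 2.24 CPM in the WT livers (1.13, SE 0.48), and Cyp2a5, a CAR target, 529 and 383 CPM (0.47, SE 0.21). Cyp3a11, the main inducible steroid and drug hydroxylase and a target of PXR, averaged 1729 CPM in the null and 2462 CPM in the WT livers (log2 difference -0.51, SE 0.17). Cyp2c29, a CAR target, measured 131, 115, 103 and 70.9 CPM in the null and 120, 241, 126 and 207 CPM in the WT mice (-0.72, SE 0.20). The null replicate 4 was the lowest of the 8 for Cyp2c29, and the difference was -0.58 without it. The list of CAR and PXR targets as a whole had 12 of 29 members higher and a median of -0.06, and conjugating enzymes of phase 2 had 20 of 42 higher and a median of -0.0016. Among the latter the sulfotransferase Sult1b1 averaged 14.9 CPM in the null and 23.2 CPM in the WT libraries (-0.62, SE 0.24), and it was 1 of 2 phase 2 genes with all null below all WT libraries, beside 191 (1.42%) of all tested genes.

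Sex-biased genes of the liver, which follow the pulses of growth hormone, were among the lists in which single libraries carried much weight. Male-biased genes had 7 of 25 members higher and a median of -0.15, and their level was 5.35, 5.25, 5.14 and 5.97 in null replicates 1 to 4 and 6.64, 5.25, 5.37 and 5.09 in the WT replicates. WT replicate 1 was thus the highest and null replicate 4 the second highest. Without null replicate 4 the median was -0.37, and without WT replicate 1 it was 0.20. Hsd3b5, a steroid dehydrogenase specific to the male liver, measured 0.474, 0.513, 0.658 and 4.04 CPM in the null and 26.7, 1.02, 1.04 and 1.75 CPM in the WT livers. Its difference of -2.66 (SE 0.87) was -3.64 without null replicate 4. Without WT replicate 1 the log2 change of Hsd3b5 was -0.14. Elovl3, a male-biased fatty acid elongase, had a difference of -0.89 (SE 0.42). It too was highest in WT replicate 1, at 29.5 CPM, with 8.21 to 15.3 CPM in the other WT libraries. Of the 20 female-biased genes listed, 7 passed the filter on low counts, and 2 of them were higher.

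In the lists of lipid metabolism 0 genes passed the adjusted test. Lipogenesis had 8 of 28 members higher (median -0.11, and -0.16 without null replicate 4), fatty acid oxidation 8 of 39 (-0.07), lipid droplet and uptake genes 14 of 30 (-0.0035) and lipoprotein genes 6 of 22 (-0.06). In cholesterol synthesis 4 of 23 genes were higher (median -0.08), and without null replicate 4 it was 2 of 23 (-0.17). Idi1, the isopentenyl diphosphate isomerase of that pathway, measured 30.5, 32.6, 29.5 and 19.4 CPM in the null and 44.6, 38.1, 40.8 and 36.2 CPM in WT mice (-0.50, SE 0.16). Null replicate 4 was the lowest for Idi1, and the difference was -0.37 without it. Pmvk, the phosphomevalonate kinase, had 16.6 to 21.9 and 23.5 to 32.7 CPM (-0.48, SE 0.18). Both genes were lower in all null than in all WT libraries, and they were the only such members of the cholesterol list. Over all tested genes this held for 191 (1.42%). Acaa1b, a peroxisomal thiolase, was also lower without overlap (447 to 698 against 710 to 791 CPM, -0.41, SE 0.15). Apoa4, an apolipoprotein that follows hepatic fat content, was higher with overlap (1617 against 1100 CPM on average, 0.56, SE 0.21).

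Bile acid genes lay lower than most lists, with 7 of 25 members higher and a median of -0.20. This median rested on WT replicate 1, without which it was 0.02. At an unadjusted p under 0.05, 4 members were lower and 1 was higher. The lower ones were Slco1b2, an uptake transporter (717.5 against 924.2 CPM on average, -0.37, SE 0.14), Scp2, which shortens the bile acid side chain (1925 against 2464 CPM, -0.36, SE 0.14), Abcb11, the bile salt export pump (542 against 678 CPM, -0.32, SE 0.13), and Nr0b2 or SHP, a repressor of bile acid synthesis (-0.69, SE 0.32). Abcc4, an efflux pump of the basolateral membrane, was the higher one (10.1 against 6.75 CPM, 0.59, SE 0.27). Of these only Abcb11 had groups that did not overlap, beside 191 (1.42%) of all tested genes that were lower without overlap.

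Within the glucose and glycogen list, 10 of 28 members were higher and the median was -0.06. G6pc, the catalytic subunit of glucose-6-phosphatase that releases glucose from the liver, measured 96.8, 83.7, 43.0 and 109 CPM in the null and 197, 115, 158 and 159 CPM in the WT livers. All null values were below all WT values. The difference was -0.93 (SE 0.25, unadjusted p = 0.001435 in edgeR), and -1.08 without null replicate 4, the highest of the null libraries. Ppp1r3c, which targets protein phosphatase 1 to glycogen, measured 6.80, 14.97, 9.46 and 9.49 CPM in the null and 32.3, 14.7, 20.3 and 17.6 CPM in the WT mice (-1.04, SE 0.29), and its groups overlapped by 1 library. Ppp1r3b, the hepatic form of this subunit, had a difference of -0.49 (SE 0.28) and Angptl8, a feeding-induced regulator of lipoprotein lipase, -0.43 (SE 0.36).

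In the urea cycle and amino acid list 5 of 28 members were higher (median -0.11, but 0.015 without WT replicate 1), and in the choline and one-carbon list 5 of 26 (-0.13). Chpt1, choline phosphotransferase 1, which completes the CDP-choline route to phosphatidylcholine, measured 101, 89.4, 95.6 and 94.8 CPM in the null and 194, 133, 122 and 119 CPM in the WT livers. The null values were tightly grouped below the WT values (-0.58, SE 0.15, unadjusted p = 0.0007293 in edgeR), and leaving out null replicate 4 left the difference at -0.58. WT replicate 1, at 194 CPM, stood well above the other WT libraries and adds to the size of this difference. On ND the same gene had a difference of 0.58 in the other direction, and the difference between the diets, -1.16 (SE 0.21), did not pass (adjusted p = 0.1001), although it did with DESeq2 and with scaling by library size only. Glud1, the mitochondrial glutamate dehydrogenase, was lower without overlap (665 to 803 against 882 to 992 CPM, -0.29, SE 0.11). Respiratory chain genes were evenly split, with 36 of 70 higher.

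**Figure D3:**
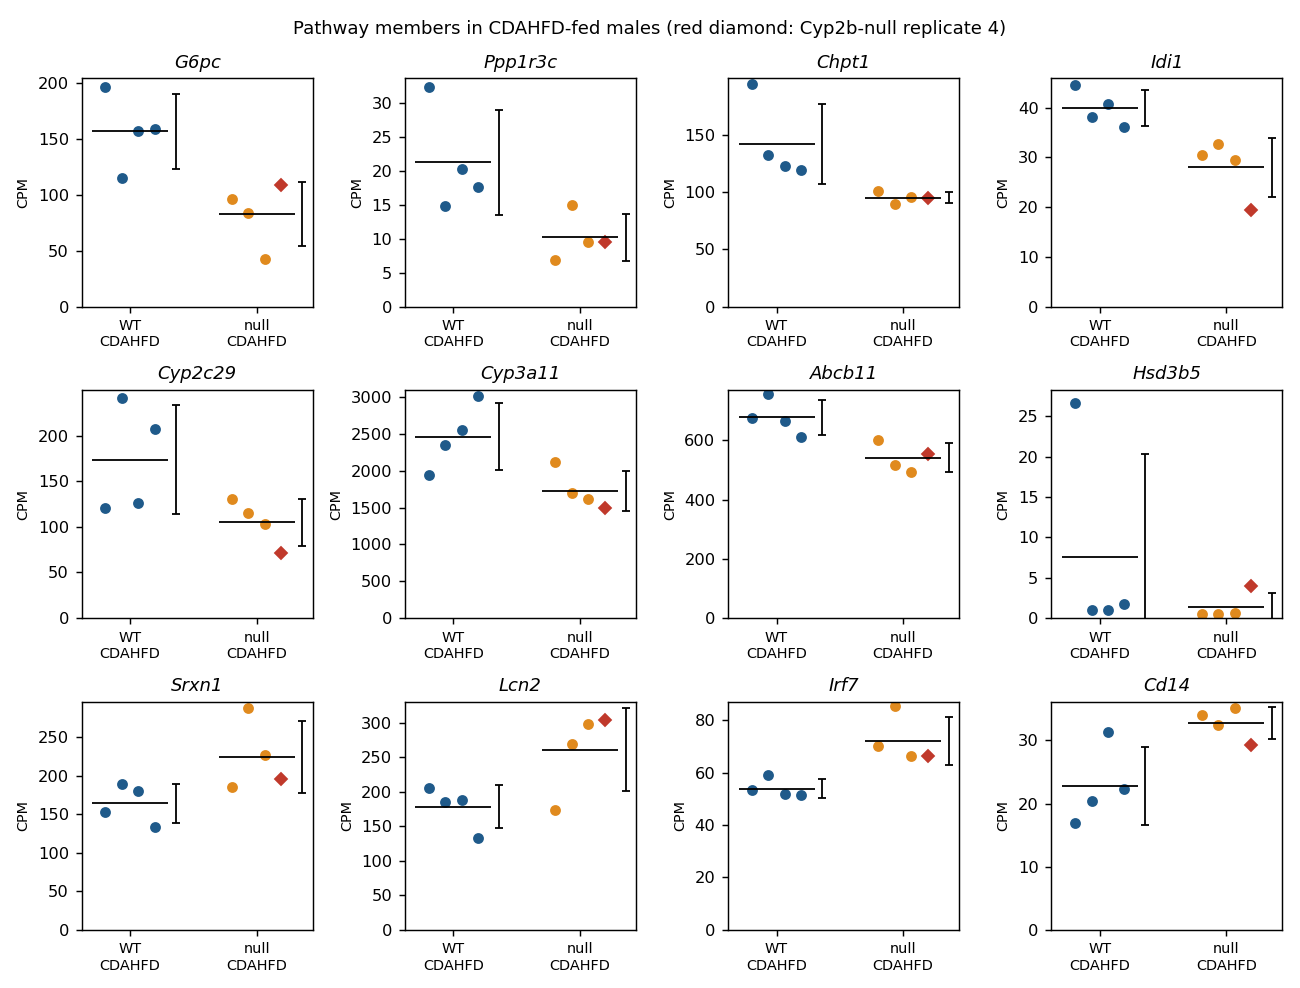
CPM of pathway genes in each library of the CDAHFD males, with the group mean (line), SD (bar, n = 4, drawn down to 0 at most) and null replicate 4 as a red diamond. G6pc, Chpt1 and Idi1 are lower in all 4 null than in all 4 WT libraries, without passing the adjusted test.

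Of the fibrosis lists, collagen and matrix genes had 34 of 39 members higher and a median of 0.23, which was 0.26 without null replicate 4. The level of the list was 4.68, 4.75, 5.20 and 4.72 in null replicates 1 to 4 and 4.43, 4.40, 4.90 and 4.76 in the WT replicates. Null replicate 3 stood above the other null libraries, and without it the median was 0.09. Without WT replicate 1 it was 0.16. Col1a2, a chain of type I collagen, measured 98.8, 105, 133 and 86.5 CPM in the null and 62.7, 57.5, 106 and 86.5 CPM in the WT mice (0.43, SE 0.21), and Col1a1, the other chain, had a difference of 0.38 (SE 0.26). Timp3, an inhibitor of matrix metalloproteinases, had 0.39 (SE 0.17). In the TGF-beta list 17 of 24 members were higher (median 0.11), but without null replicate 3 the median was 0.0053. Tgfb1, the profibrotic cytokine itself, had a difference of 0.20 (SE 0.18). Stellate cell markers were split, with 8 of 15 higher and a median of 0.07, which was -0.07 without null replicate 3, and Acta2, the actin of activated stellate cells, had a difference of 0.10 (SE 0.37).

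Macrophage markers also lay higher, and null replicate 3 stood highest of the 8 libraries in both this list and the matrix list. The macrophage levels were 5.88, 5.92, 6.57 and 6.18 in the null and 5.31, 5.93, 6.29 and 6.02 in the WT libraries, with WT replicate 1 the lowest. In all, 21 of 22 tested members were higher (median 0.22). The median was 0.06 without WT replicate 1 and 0.04 without null replicate 3, and 0.23 without null replicate 4. The part of macrophage content in the matrix values was not tested. Cd14, the endotoxin co-receptor, measured 34.0, 32.4, 35.1 and 29.3 CPM in the null and 17.0, 20.5, 31.3 and 22.4 CPM in the WT livers (0.51, SE 0.17). Cd68, a lysosomal macrophage marker, had a difference of 0.19 (SE 0.22). Resident Kupffer cell markers were evenly split (4 of 8 higher, median 0.0001), and Timd4, which marks embryo-derived Kupffer cells, was near the floor in both groups (0.615 to 1.58 and 0.461 to 1.43 CPM).

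Among the other immune lists, interferon-responsive genes had 26 of 32 members higher and a median of 0.11, which was 0.13 without null replicate 4. Irf7, the master regulator of type I interferon genes, measured 70.2, 85.4, 66.2 and 66.3 CPM in the null and 53.2, 59.1, 51.8 and 51.6 CPM in the WT mice (0.42, SE 0.16). It was higher in all null than in all WT libraries, as were 154 (1.14%) of all tested genes. Chemokines, cytokines and their receptors had 17 of 27 members higher (median 0.09). MHC class II genes had 4 of 7 higher (0.01), lymphocyte markers 3 of 6 (-0.02) and neutrophil markers 2 of 3 (0.24), with low counts in the latter lists. Acute-phase genes had 10 of 24 higher (median -0.0042), and within them Lcn2, the iron-scavenging lipocalin 2, measured 174, 270, 298 and 304 CPM in the null and 206, 185, 188 and 133 CPM in the WT livers (0.55, SE 0.18).

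Of the stress lists, targets of the oxidant sensor NRF2 had 17 of 24 members higher and a median of 0.14. Srxn1, the sulfiredoxin that repairs oxidised peroxiredoxins, measured 185, 288, 227 and 195 CPM in the null and 153, 189, 180 and 134 CPM in the WT mice (0.45, SE 0.15). Cbr3, a carbonyl reductase, measured 10.1, 14.6, 9.29 and 4.85 CPM and 5.04, 3.68, 6.79 and 6.12 CPM (0.84, SE 0.33). For Cbr3 null replicate 4 alone lay among the WT values, and without it the difference was 1.05. Genes of endoplasmic reticulum stress and the integrated stress response leaned the other way, with 5 of 27 higher and a median of -0.17, which was -0.24 without null replicate 4. Calr, a chaperone of the endoplasmic reticulum, averaged 675 against 861 CPM (-0.35, SE 0.16). The p53 and cell death list had 16 of 24 members higher (median 0.07), the cell cycle list 19 of 34 (0.09), glucocorticoid-responsive genes 12 of 18 (0.20) and clock genes 9 of 19 (-0.01). Pcna, the replication clamp, had a difference of 0.15 (SE 0.16).

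Markers of liver cells gave no list whose groups were apart. Hepatocyte markers had 5 of 14 members higher (median -0.07), pericentral genes 2 of 12 (-0.07) and periportal genes 3 of 9 (-0.01). Endothelial markers had 15 of 17 higher (median 0.20, and 0.11 without null replicate 4), with levels of 3.98 to 4.58 in the null and 3.67 to 4.29 in the WT libraries. Lyve1, a receptor of sinusoidal and lymphatic endothelium, had a difference of 0.52 (SE 0.25). All 5 erythroid genes were lower, with a median of -0.32 and levels of 5.79 to 6.36 against 6.13 to 6.597. The globin gene Hba-a1 averaged 65.4 against 88.6 CPM (-0.44, SE 0.16) and Alas2, the erythroid heme synthesis enzyme, 56.7 against 76.2 CPM (-0.43, SE 0.16). The part of blood content in other values was not tested. Pancreatic genes had 1 of 2 tested members higher (median 0.09), and 1 muscle and fat gene was tested (0.11).

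The genes that passed the test, apart from Cyp2b9, were Cyp2a4, Gm40812 and Gm7120. Cyp2a4 encodes a steroid 15-alpha-hydroxylase that is normally female-biased in liver, and it lies beside the deleted genes on chromosome 7. It measured 171, 84.1, 87.7 and 72.3 CPM in null replicates 1 to 4 and 5.79, 14.7, 12.1 and 34.1 CPM in the WT replicates. Every null library was above every WT library. The WT mean of 16.7 ± 12.2 CPM and the null mean of 104 ± 45.3 CPM (each SD of 4 libraries) gave a rise of 2.64 on the log2 scale (SE 0.44, edgeR quasi-likelihood test, adjusted p = 0.03142). Without null replicate 4, the lowest of the null values, the change was 2.77 (adjusted p = 0.04372). It missed the adjusted test in 6 of the 16 fits that each left out 1 male library, those without WT replicates 1, 2 or 3, null replicates 1 or 3 or null ND replicate 3, with adjusted p up to 0.2383 in edgeR.

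Cyp2a4 is a near copy of Cyp2a5, a coumarin hydroxylase, and reads can be shared between them, so their sequences are shown beside each other. The aligned 249 bases before the 2 genes, from RefSeq on GRCm38.p6, differ at 4 positions (98.4% identity). Capitals mark the letters that differ.
Cyp2a4, chr7:26306943-26307191, plus strand: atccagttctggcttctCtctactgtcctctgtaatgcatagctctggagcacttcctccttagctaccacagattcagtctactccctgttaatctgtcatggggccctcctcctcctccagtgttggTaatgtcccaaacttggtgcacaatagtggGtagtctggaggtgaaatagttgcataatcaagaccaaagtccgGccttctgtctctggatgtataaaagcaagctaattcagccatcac
Cyp2a5, chr7:26835089-26835337, plus strand: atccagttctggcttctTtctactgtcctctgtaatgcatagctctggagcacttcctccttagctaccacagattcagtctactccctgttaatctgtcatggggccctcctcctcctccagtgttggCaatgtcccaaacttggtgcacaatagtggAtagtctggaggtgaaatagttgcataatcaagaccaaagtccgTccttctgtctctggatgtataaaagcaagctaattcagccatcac

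The first 150 coding bases, in exon 1 of each gene (GENCODE M21), differ at 2 positions, again in capitals, and show what a read of this length has to tell the transcripts apart.
Cyp2a4, chr7:26307218-26307367, plus strand: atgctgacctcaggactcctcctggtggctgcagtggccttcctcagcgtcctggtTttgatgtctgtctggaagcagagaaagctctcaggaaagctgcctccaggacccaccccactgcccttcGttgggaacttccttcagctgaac
Cyp2a5, chr7:26835364-26835513, plus strand: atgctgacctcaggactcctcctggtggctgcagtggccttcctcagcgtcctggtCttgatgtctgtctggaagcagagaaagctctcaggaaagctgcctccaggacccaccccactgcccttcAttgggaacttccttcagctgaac

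Over the whole coding sequence of 1485 bases, 23 positions differ (98.5% identity), and 67 of the 1589 windows of 150 bases in the Cyp2a4 transcript (4.22%) occur unchanged in that of Cyp2a5. How reads that match both genes were counted is not given in the sources used here, and the level of either gene is uncertain to that extent. Cyp2a5 itself measured 563, 480, 557 and 515 CPM in the null and 352, 330, 243 and 605 CPM in the WT mice (0.47, SE 0.21, adjusted p = 0.9999). The share of Cyp2a4 in the sum of both genes was 23.3%, 14.9%, 13.6% and 12.3% in the null libraries and 1.62%, 4.28%, 4.75% and 5.33% in the WT libraries. The groups did not overlap in this share. It is computed from the same Cyp2a4 values and is not a separate result, and it cannot show how shared reads were counted. Among the other P450 genes near the deletion, Cyp2a12 (-0.05, SE 0.12), Cyp2a22 (-0.37, SE 0.24) and Cyp2f2 (-0.17, SE 0.17) did not pass.

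The genes within 1 Mb of the deleted genes were also described as a list. Of 38 tested, 30 were higher in the null mice, with a median of 0.08, and 1, Cyp2a4, was called. The levels were 4.62, 4.50, 4.47 and 4.38 in the null and 4.26, 4.28, 4.33 and 4.42 in the WT libraries. Only null replicate 4 and WT replicate 4 overlapped. Cyp2a4 carried part of this: without it the levels were 4.33 to 4.54 in the null and 4.29 to 4.40 in the WT libraries. On ND, 18 of the 38 genes were higher in the null males, with a median of -0.01. An effect of position was not tested.

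Gm40812, a predicted gene, measured 206, 91.0, 183 and 138 CPM in the null and 16.8, 20.1, 28.2 and 28.1 CPM in the WT livers. Every null value was above every WT value. It rose by 2.71 on the log2 scale (SE 0.47, adjusted p = 0.03142), and without null replicate 4 the change was 2.76 (adjusted p = 0.09183). Gm7120, listed by RefSeq as Tmem267, a transmembrane protein gene at chr13:119488086-119610459 on GRCm38.p6, measured 3.80, 2.87, 2.80 and 1.62 CPM in the null and 7.28, 12.9, 9.33 and 8.91 CPM in the WT mice. It fell by 1.76 (SE 0.30, adjusted p = 0.03142), and by 1.62 without null replicate 4 (adjusted p = 0.1448). The strand setting of the counting is not given, so that reads of overlapping genes on opposite strands cannot be separated for either gene. Both genes missed the adjusted test in 8 of the 16 fits without 1 library.

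**Figure D4:**
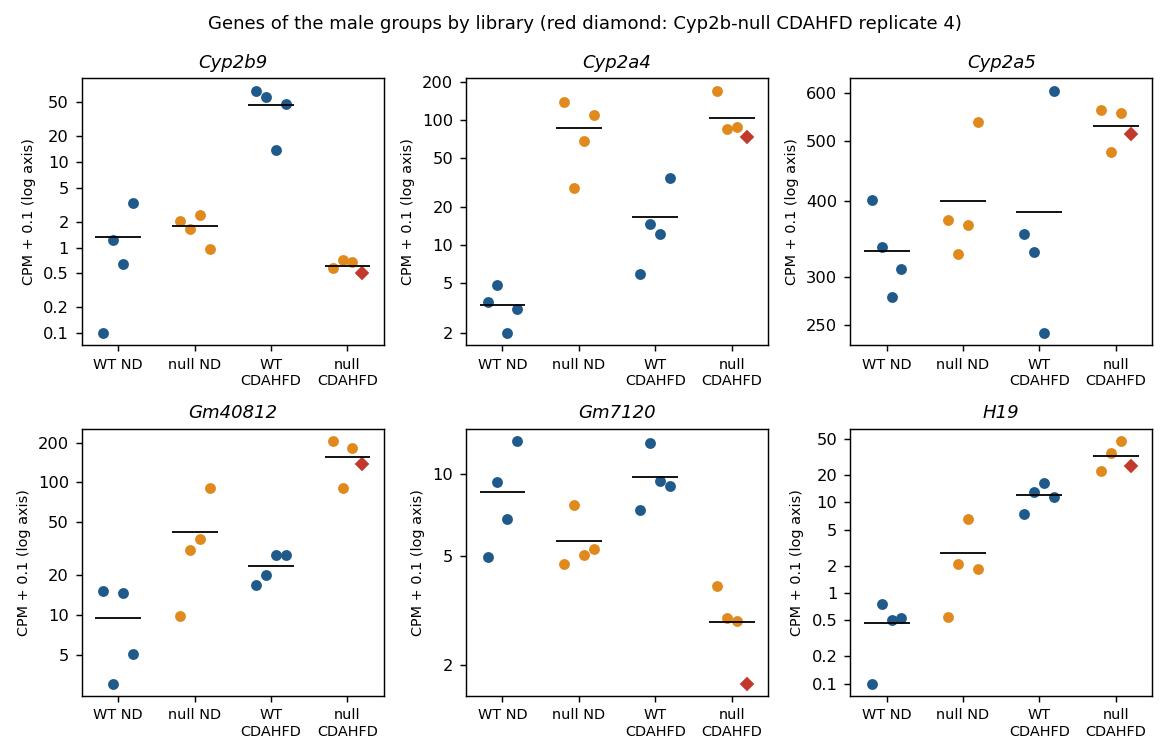
CPM (plus 0.1, log axis) of the genes that passed the test, and of Cyp2a5 and H19, in each library of the 4 male groups, with the group mean as a line and CDAHFD null replicate 4 as a red diamond. On CDAHFD the null and WT libraries do not overlap for Cyp2b9, Cyp2a4, Gm40812, Gm7120 and H19, and they do for Cyp2a5.

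Next in order of unadjusted p, with groups that did not overlap, came further genes that missed the adjusted test. H19, an imprinted noncoding RNA that is abundant in fetal liver, measured 22.1, 35.3, 47.6 and 24.9 CPM in the null and 7.28, 12.9, 16.2 and 11.4 CPM in the WT mice (1.44, SE 0.36), and on ND it had a difference of 2.61 that did not pass (adjusted p = 0.3117). Camk2b, a calcium- and calmodulin-dependent kinase, measured 9.09 to 12.5 and 3.495 to 7.37 CPM (0.99, SE 0.24), and Adgrf1, an adhesion G protein-coupled receptor, 4.41 to 9.70 and 3.69 to 4.09 CPM (0.70, SE 0.23). Adgrf1 was highest in null replicate 4, and its difference was 0.47 without it. On the lower side were the mitochondrial glycine tRNA gene TrnG (30.4 to 42.1 against 60.4 to 78.9 CPM, -0.96, SE 0.22), the vesicle fusion gene Vamp7 (24.5 to 28.9 against 34.3 to 45.4 CPM, -0.58, SE 0.15) and the zinc finger gene Zfp930 (3.38 to 4.03 against 5.42 to 8.77 CPM, -0.90, SE 0.23). Hcrtr2, an orexin receptor that the study discusses, had at most 3 counts in every null library, at least 2.24-fold below the WT level, and was too low to be tested. Elovl2, an elongase of polyunsaturated fatty acids, had -0.29 (SE 0.16), Cyp17a1, a steroid hydroxylase, 0.67 (SE 0.44) and Akr1b8, an aldo-keto reductase, 0.24 (SE 0.28).

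Males on ND and females on CDAHFD were used to show where the comparison differed. On ND, 5 genes (0.0371%) passed between the genotypes in males. Cyp2a4 was among them, at 85.9 ± 48.1 CPM (SD of 4 libraries) in the null group and 3.26 ± 1.17 CPM in the WT group, and it rose by 4.74 on the log2 scale (SE 0.53, adjusted p = 0.0002097). Cyp2b10 fell by 4.31 on ND (SE 0.55, adjusted p = 0.0009157). The genotype effect itself differed between the diets for 1 gene (0.00743%), Cyp2b9. WT males on ND measured 1.22 CPM of Cyp2b9 on average and null males 1.67 CPM, so that Cyp2b9 was near the floor in both, and the effect on CDAHFD was lower by 6.97 (SE 0.95, adjusted p = 0.004932). This call was lost in the fit without null ND replicate 1, where 0 genes passed. The difference between diets did not pass for Cyp2a4 (adjusted p = 0.6599), Gm40812 (adjusted p = 0.9354) or Gm7120 (adjusted p = 0.6989).

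Between the sexes on CDAHFD, the genotype effect differed for 1 of 14020 genes (0.00713%), Gm40812. Its log2 difference was 2.71 in males and -0.95 in females, and these differed by 3.66 (SE 0.64, adjusted p = 0.02623). This call was lost in 10 of the 16 fits that each left out 1 library of the CDAHFD groups. Cyp2a4 had a difference of 1.21 in females, and its difference between the sexes did not pass (adjusted p = 1.0). On ND the list medians of collagen and matrix genes (-0.01) and macrophage markers (-0.03) lay near that of all tested genes (-0.01). The levels of these lists were much lower on ND, at 2.47 to 2.87 against 4.40 to 5.20 for matrix genes. For macrophage markers they were 1.78 to 2.28 against 5.31 to 6.57. The filter ran over the 4 male groups, so members could pass through their CDAHFD counts alone. The ND medians of these lists therefore cannot show whether the diets differ. Among others, medians were of the other sign than on CDAHFD for endothelial markers (-0.24), glucocorticoid-responsive genes (-0.10) and fatty acid oxidation (0.09, 29 of 39 higher). They were of the same sign for the endoplasmic reticulum stress list (-0.25) and NRF2 targets (0.17). These differences between list medians were not tested.

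Leaving out null replicate 4 reduced the called genes from 4 to 2, Cyp2b9 (-6.30, adjusted p = 4.106e-05) and Cyp2a4. In a fit of the CDAHFD groups alone without that library 2 genes were called as well, but they were Cyp2b9 and Gm40812, and the log2 change of Cyp2a4 missed the limit (adjusted p = 0.05428). The same step with other libraries gave 1 gene without WT replicate 2, WT replicate 3, null replicate 1, null replicate 3 or null ND replicate 3, 2 genes without WT replicate 1 or 4, and 3 genes without null replicate 2. At an unadjusted p under 0.05, 487 genes became 538 (200 higher, 338 lower), 330 were in both sets, and 0 of the 487 changed sign. Of all 13460 genes, 1469 changed sign. The level of null replicate 4 was above the other 7 libraries in 2 lists, Kupffer markers (4.16) and endothelial markers (4.58), and below them in 1, ductular markers (2.69 against 3.07 to 4.17).

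Among the pathways, 3 list medians shifted by more than 0.1 without null replicate 4. Ductular markers went from -0.04 to 0.26, male-biased genes from -0.15 to -0.37 and female-biased genes from -0.16 to -0.33. Smaller shifts that still moved a median by over 1.5 times included those of pericentral (-0.07 to -0.14), endothelial (0.20 to 0.11), stellate (0.07 to 0.11), CAR and PXR target (-0.06 to -0.03), acute-phase (-0.0042 to -0.09), lymphocyte (-0.02 to -0.08) and periportal genes (-0.01 to -0.04). The median changed sign in 5 lists, all of them with a median within 0.05 of 0 at first, namely ductular, Kupffer, MHC class II, clock, and lipid droplet and uptake genes. Krt18, a keratin of hepatocytes and ductular cells, measured 507, 689, 518 and 413 CPM in the null and 426, 509, 446 and 299 CPM in the WT livers, and its difference went from 0.34 to 0.44. In 2 lists the groups came apart once null replicate 4 was left out. NRF2 targets then had levels of 6.40 to 6.50 against 6.21 to 6.32, with 6.27 in null replicate 4, and the neighbours of the deletion 4.47 to 4.62 against 4.26 to 4.42. With Cyp2a4 taken out of the latter list, its lowest remaining null level was 4.42 and its highest WT level 4.40. Both lists, Cyp2a4 included, also came apart without WT replicate 4 (6.27 to 6.50 against 6.21 to 6.26, and 4.38 to 4.62 against 4.26 to 4.33). Cholesterol genes did so without null replicate 2 and erythroid genes without null replicate 1. Interferon genes came apart without WT replicate 2, and choline and one-carbon genes without WT replicate 3. Such separation was thus not particular to null replicate 4. Over the 8 fits that each left out 1 of the libraries compared, 17 lists kept 1 sign, 8 above 0 (collagen and matrix, TGF-beta, macrophage, interferon, NRF2, glucocorticoid, endothelial and neighbours of the deletion) and 9 below 0 (P450s, lipogenesis, fatty acid oxidation, cholesterol, glucose and glycogen, choline and one-carbon, endoplasmic reticulum stress, pericentral and erythroid). Several of them came close to 0 in 1 of these fits, as did TGF-beta genes (0.0053), fatty acid oxidation (-0.012), pericentral genes (-0.017) and lipogenesis (-0.021), and glucocorticoid-responsive genes went down to 0.06. Leaving out WT replicate 1 turned the sign of the median for, among others, bile acid (0.019), urea cycle and amino acid (0.015), lipoprotein (0.023), CAR and PXR target (0.04), phase 2 (0.06), periportal (0.08), hepatocyte (0.08), acute-phase (0.12) and male-biased genes (0.20).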

How the data were processed

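Liver total RNA was made into libraries with an NEB Next Ultra kit and sequenced as paired reads. How mRNA was selected and the strand setting are not given in the sources used here. Per the study's methods the reads were checked with FastQC, trimmed with Trimmomatic, aligned to GRCm38.p6 with GSNAP and assigned to genes with featureCounts of Subread. The authors deposited raw counts per gene, 41585 entries in the male table, of which 27 have symbols turned into dates by a spreadsheet. Counts were analysed with edgeR 4.0.16 in R 4.3.3: genes passed filterByExpr (minimum count 10, total 15), TMM factors were used, and 1 quasi-likelihood model over the 4 male groups gave each contrast, with Benjamini-Hochberg adjustment and a limit of 0.05. The contrast of the sexes used 1 model of all 32 libraries. SE is the log2 change divided by the root of F. List levels are mean log2 CPM with a prior count of 2. DESeq2 1.42.0, other scalings and filters, a replicate block and leaving out libraries were alternatives. On data simulated for this comparison (13155 genes), 71 of 97 genes changed 2-fold and 93 of 95 changed 4-fold were called, as were 11 unchanged genes. The simulation had no diet effect and more changed genes than were called in the real data.

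The members and the gene lists were chosen with earlier results of these data known. Genes are named as deleted, as called, as the 2 list members with the smallest unadjusted p at a mean of at least 1 CPM, as the 5 higher and 5 lower genes of smallest p whose groups do not overlap, as named in the study's text, or as neighbours and paralogs of the deleted genes. Abcb11, Nr0b2, Abcc4, Cyp1b1, Cyp3a25, Timd4, Alb, Hnf4a, Prss2 and Pnlip were named outside this rule, after their values were seen or as markers. Not every gene that the rule names is reported here. Depth was 4483301 to 9411558 counts per library, and a group with at most 3 counts in every library was read as at the floor.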

Additional observations from a re-analysis of the deposited data

Results flagged for a closer look

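In each group of 4, a library was set apart where its gap to the nearest of the others, as a part of the group's range, exceeded Dixon's 95% critical value. This held for 17 of 280 groups, and chance alone gives about 1 in 20. Cyp2b-null replicate 3 accounted for 6 of them, all list levels (mean log2 CPM). It was low for the urea cycle and amino acid list (7.64, others 8.00 to 8.04), the choline and one-carbon list (6.82, others 6.97 to 6.99) and periportal genes (7.74, others 8.09 to 8.13). It was high for collagen and matrix (5.20, others 4.68 to 4.75), stellate (4.33, others 3.92 to 3.95) and TGF-beta genes (4.30, others 3.85 to 3.91). Null replicate 4 stood apart for Hsd3b5 (2.12 log2 CPM, others -0.36 to -0.05) and low for Nnt (5.74, others 6.04 to 6.08). Nnt is the transhydrogenase gene that carries a deletion in the B6J substrain, and it had counts in all 8 libraries. Counts summed over a gene cannot show whether a deletion within it is present, and the substrain was not tested. Null replicate 2 stood apart for Atp5l (2.39) and H2-DMb1 (1.67), and null replicate 1 for Zbtb16 (4.07). WT replicate 1 was high for Hsd3b5 (4.75, others 0.41 to 1.04) and low for Cd207 (1.72) and H2-DMb1 (2.14). WT replicate 4 was low for Abhd5 (4.59), Foxm1 (1.16) and Clock (5.20).

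The genotype effect of Cyp2b9 differed between the diets in males, by -6.97 on the log2 scale. That of Gm40812 on CDAHFD differed between the sexes, by 3.66.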

How the results depend on the processing

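With DESeq2, RLE scaling, library size only and a filter of 1 CPM in 4 libraries, the same 4 genes were called on CDAHFD. Without a filter on low counts 51 genes were called on CDAHFD, 170 on ND, 95 for the difference between diets and 49 for that between sexes, and the cause was not tested. Those on CDAHFD then included G6pc, Ppp1r3c, Cyp2c29, Hsd3b5, Elovl3, Chpt1, Lcn2, H19 and TrnG. On ND, DESeq2 called 72 genes, library size scaling 3 and a fit of the 2 groups alone 2. For the difference between diets DESeq2 called 3 genes and library size scaling 2, Chpt1 among them in both, and for that between sexes DESeq2 called 2. A fit of the 2 CDAHFD groups alone called 5 genes, TrnG in addition, and 2 without null replicate 4, an alternative chosen after seeing the data. Leaving out 1 library at a time gave 1 to 5 genes on CDAHFD, 2 to 29 on ND, 0 to 3 for the difference between diets and 0 to 1 for that between sexes. These fits gave medians of -0.231 to 0.0186 for bile acid genes, 0.10 to 0.24 for interferon genes, 0.0405 to 0.149 for NRF2 targets and -1.22 to 0.72 for the 1 muscle and fat gene tested.

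Of the values of named genes, 12 changed sign, each in a fit without 1 library and none in a gene that passed the test. Over these fits the log2 change of Atp5l ranged from -0.057 to 0.78, the log2 change of Cd207 from -0.049 to 0.31, the log2 change of S100a8 from -0.019 to 0.62 and the log2 change of H2-Ab1 from -0.099 to 0.31. The log2 change of Ass1 ranged from -0.22 to 0.000496, the log2 change of Cyp2f2 from -0.30 to 0.079, the log2 change of Acta2 from -0.069 to 0.25 and the log2 change of Cyp2a12 from -0.13 to 0.076. With library size scaling 6 list medians changed sign, none over 0.0388 in size, and with RLE 1 did.

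Between the CDAHFD groups, the deviations of libraries with the same replicate number had r = 0.03, -0.19, 0.29 and -0.12 for replicates 1 to 4. Only for replicate 3 was the same number the closest match. The labels do not say that a number marks a batch, and these values cannot decide it, so samples were not paired. With a replicate block 5 genes were called on CDAHFD, H19 in addition, 8 on ND, and 1 for each of the differences between diets and sexes. In the simulation with 4 libraries a group, 71 of 97 changes of 2-fold were called. It held no diet effect and more changed genes than were called here, which eases the adjusted limit. This share therefore does not carry over to the real data, where differences near 2-fold can be missed as well as smaller ones. Folds of genes with few counts in a group, Cyp2b9 and Cyp2b10 included, are imprecise.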

Other observations

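The mitochondrial tRNA entries were looked at after TrnG had been seen. Of 19 tested, 16 were lower and 3 higher in the Cyp2b-null than in the WT males on CDAHFD, 7 were lower at an unadjusted p under 0.05 in edgeR and 0 passed after adjustment. The median log2 difference was -0.35, and -0.40 without null replicate 4, with a range of -1.33 to 0.46. The mitochondrial rRNAs mt-Rnr1 (0.34, SE 0.34) and mt-Rnr2 (0.09, SE 0.27) had differences of the other sign.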
